A study of Rattus norvegicus with 12 samples.

Results

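The lactation effect 3 weeks after simulated birth injury (SBI) was measured in rat pubocaudalis, part of the pelvic floor musculature, by comparing 3 RNA-seq libraries of lactating rats (SBI + Lac) with 3 libraries of non-lactating rats (SBI). These 6 libraries were chosen by their time point alone, out of 12 in the series. Of the 30206 genes in the table, 14599 passed the low-count filter and were tested. A gene was called when its adjusted p was under 0.05 in edgeR's quasi-likelihood test with Benjamini-Hochberg adjustment and its log2 fold change was beyond 1 in size. By that rule 108 genes differed, 78 of them lower and 30 higher in SBI + Lac.

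The study asked how nursing alters the healing of this muscle after a birth injury. All rats were female Sprague-Dawley rats, 3 months old, and all carried the injury, a vaginal balloon distention on gestation day 20, so neither group was an uninjured control. SBI rats had their pups removed straight after birth, and SBI + Lac rats nursed until weaning at 3 weeks, so that the lactating muscle was taken at the end of lactation. Each group held 6 rats, whose RNA was combined 2 at a time into 3 pools. The study calls these pools technical replicates. The p-values therefore measure the spread between pools and not that between single animals. The other 6 libraries came from the same design at 1 week, in different rats.

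During lactation ovarian estrogen is low, and much of the mother's fuel and amino acid supply is diverted to milk. The study found serum prolactin higher in lactating rats only early in lactation. It was higher in non-lactating rats at the earlier time point of the series. By the end of lactation, the time point of this contrast, the groups had similar prolactin levels. Skeletal muscle repairs itself through satellite cells, the muscle stem cells that express Pax7. Macrophages clear debris and fibroblasts lay down a temporary collagen matrix, and both recede as fibers mature. Muscle is also the largest store of amino acids and a target of glucocorticoids, which raise a well known set of genes through a nuclear receptor.

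The 3-week libraries held 10082734 to 75634391 counts, a 7.5-fold range, and the deepest SBI library, replicate 3, also had the highest summed collagen and macrophage levels. Markers of skeletal muscle dominated all 6 libraries. Their sum was higher in SBI + Lac (174237 to 194894 normalized CPM, the count as a share of the scaled library) than in SBI (118524 to 162436 CPM), with no overlap. None of the 7 markers was called, and the smallest edgeR adjusted p was 0.196, for Ckm. Mb and Myh2 had log2 fold changes of -0.04 and -0.06, and the other markers lay above 0. In bulk muscle, fewer cells of a type cannot be told apart from less RNA per cell, and the part of the muscle share in the other results was not tested. The first principal component, 42.5% of the variance, put the SBI libraries at -4.55, -8.08 and -37.5 and the SBI + Lac libraries at 12.0, 6.37 and 31.8. SBI replicate 3 and SBI + Lac replicate 3 lay farthest out on it.

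Fewer genes rose than fell. The 78 lower genes were 0.534% of those tested and the 30 higher genes were 0.205%. Without the fold limit, 371 genes (2.54%) had an adjusted p under 0.05, 174 lower and 197 higher, so the larger number of lower calls came with the fold limit. The lower genes had a median log2 fold change of -1.49 and the higher genes of 1.26. Among the called genes, 9 lower ones averaged under 1 normalized CPM in both groups, and none of the 30 higher ones did. All 108 had 3 SBI libraries that did not overlap the 3 SBI + Lac libraries, which held for 22.3% of all genes tested.

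**Figure D1:**
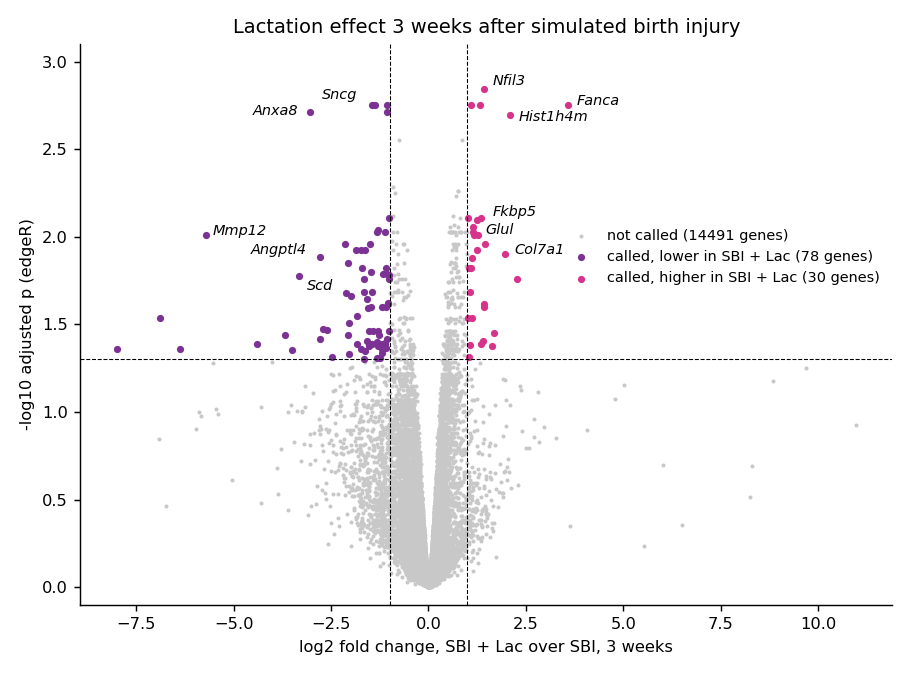
Log2 fold change of SBI + Lac over SBI at 3 weeks (x axis) against -log10 of the edgeR adjusted p (y axis), 1 point per gene tested. Dashed lines mark the limits of the call, and the 78 called lower and 30 called higher genes are coloured; the lower genes spread over a wider range of fold changes than the higher ones.

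The gene lists described here and below were chosen with earlier results of these data known. Their counts describe the data and are not a test. Glucocorticoid-responsive genes held several increases with small adjusted p-values. Of 26 such genes tested, 4 rose (Fkbp5, Glul, Fmo2 and Cebpd) and 0 fell in edgeR; 4 had an unadjusted p under 0.05 in the lower direction and DESeq2 called 1 of these. Fkbp5 (ENSRNOG00000022523), which encodes a co-chaperone of the glucocorticoid receptor, measured 17.8, 13.4 and 14.3 normalized CPM in SBI replicates 1 to 3 and 46.2, 31.4 and 38.1 in SBI + Lac. Every lactating library was above every non-lactating one, a 2.57-fold difference (log2 1.36 ± 0.21 SE, edgeR adjusted p = 0.00777). Glul, glutamine synthetase, measured 808, 844 and 616 CPM in SBI and 2055, 1789 and 1496 in SBI + Lac, again without overlap (log2 1.24 ± 0.20, edgeR adjusted p = 0.00802). The calls of Fkbp5 and Glul held whichever 1 of the 6 libraries was left out.

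Fmo2, a flavin monooxygenase, and Cebpd, a transcription factor, also rose. Fmo2 measured 11.3, 10.3 and 8.35 CPM in SBI and 23.5, 20.2 and 20.1 in SBI + Lac. Cebpd measured 14.8, 8.92 and 14.0 CPM in SBI and 26.5, 31.4 and 18.7 in SBI + Lac. Neither gene's groups overlapped. Other members of the list were not called. Tsc22d3, the glucocorticoid-induced leucine zipper, had a log2 fold change of 0.45 ± 0.14 (edgeR adjusted p = 0.0942) and Mt1, a metallothionein, one of -1.21 ± 0.38 (edgeR adjusted p = 0.1). The list as a whole had 15 members above 0 and 11 below, with a median of 0.30 against -0.02 for all genes tested. Without SBI + Lac replicate 1, 2 of the 26 were called and the median was 0.08.

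The promoters of the called members, at most 3 by adjusted p, were read from RefSeq (GRCr8) and searched on both strands for ACANNNTGT, the core of the glucocorticoid response element with its gap of 3 bases, and for GAAANNGAA, the repeat of the interferon-stimulated response element. The windows ran from 250 bases before to 50 bases after the start, and 82 of 102 called symbols had one. The promoters of Fkbp5 and Fmo2 held neither motif. The Glul promoter held ACANNNTGT, which occurs in 6.60% of all 27457 promoters and in 3 of the 20 glucocorticoid-list promoters with a sequence. The 250 bases before the Glul start (GRCr8 chr13:68519250-68519499, plus strand) are shown because Glul was the only one of the 3 promoters read for this list with a match; capitals mark the match, 63 bases before the start.

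Glul: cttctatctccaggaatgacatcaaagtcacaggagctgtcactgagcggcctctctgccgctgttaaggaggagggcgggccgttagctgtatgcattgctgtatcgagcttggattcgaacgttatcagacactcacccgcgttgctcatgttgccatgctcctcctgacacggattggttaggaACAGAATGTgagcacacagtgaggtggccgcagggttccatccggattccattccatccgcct

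A minority of the genes of amino acid, sulfide and glycogen handling rose in lactating muscle. Of 19 tested, 5 were called higher (Prodh, Sqor, Glul, Ppp1r1a and Ppp1r3c) and 0 fell in edgeR, with 0 at an unadjusted p under 0.05 in the lower direction and none lower in DESeq2. Sqor, a mitochondrial enzyme that oxidizes hydrogen sulfide, measured 12.3, 6.25 and 7.13 CPM in SBI and 22.3, 19.9 and 25.7 in SBI + Lac (log2 1.44 ± 0.24, edgeR adjusted p = 0.011). Ppp1r3c, a subunit that directs protein phosphatase 1 to glycogen, measured 347, 289 and 229 CPM in SBI and 709, 599 and 592 in SBI + Lac (log2 1.14 ± 0.19, edgeR adjusted p = 0.00934). Ppp1r1a, an inhibitor of the same phosphatase, measured 172, 186 and 121 CPM in SBI and 334, 405 and 323 in SBI + Lac. The lowest lactating library of each of these genes exceeded the highest non-lactating one.

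Prodh, the first enzyme of proline breakdown, measured 1.39, 1.67 and 0.936 CPM in SBI and 5.41, 3.28 and 2.97 in SBI + Lac. Its 3.08-fold difference had an edgeR adjusted p of 0.0422, and the call held in 1 of 6 fits that each left out 1 library. The other enzymes of the list had adjusted p-values of 0.152 or more, and the list median was 0.17. Without SBI replicate 3, 1 of the 19 genes was called, and without SBI + Lac replicate 1, 2 did.

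In the circadian list 1 of 19 genes was called. Nfil3 (ENSRNOG00000011668), a transcriptional repressor in the output of the clock, measured 12.0, 11.6 and 8.37 CPM in SBI and 32.0, 25.8 and 25.3 in SBI + Lac, and had the smallest adjusted p of all genes tested (log2 1.42 ± 0.15, edgeR adjusted p = 0.00143). Per2, a core clock repressor, passed the adjusted p but not the fold limit at log2 0.75 ± 0.18 (edgeR adjusted p = 0.0448). Npas2 and Nr1d1 had log2 fold changes of -0.97 ± 0.35 and -0.80 ± 0.30 and were not called (edgeR adjusted p = 0.138 and 0.158). The Nr1d1 libraries did not overlap, at 195, 216 and 146 CPM in SBI and 107, 104 and 107 in SBI + Lac. The time of day at which muscles were taken is not given in the sources used here, and its part was not tested.

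Secreted signals and receptors were grouped as a list of prolactin, growth hormone and steroid receptors with related muscle cytokines. Il15 and Cntfr rose, and 0 of the 16 genes fell in edgeR or DESeq2, with 3 lower at an unadjusted p under 0.05. Il15, a cytokine that muscle fibers make, measured 14.1, 14.3 and 11.8 CPM in SBI and 26.6, 29.9 and 24.1 in SBI + Lac (log2 1.02 ± 0.22, edgeR adjusted p = 0.0289). Cntfr, the receptor subunit for ciliary neurotrophic factor, measured 6.54, 4.58 and 3.77 CPM in SBI and 15.3, 10.7 and 12.2 in SBI + Lac (log2 1.43 ± 0.30, edgeR adjusted p = 0.0242). Both sets of libraries were apart. Both calls were easily lost, since Il15 was called in only 1 and Cntfr in only 2 of the 6 fits that left out a library. The prolactin receptor Prlr, at 0.110 to 1.07 CPM, was not called (log2 -1.55 ± 0.70, edgeR adjusted p = 0.22). The estrogen receptor Esr1 measured 6.44, 4.33 and 4.81 CPM in SBI and 3.00, 4.44 and 5.94 in SBI + Lac, which overlapped.

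Several other genes rose with tight libraries. Smyd2, a lysine methyltransferase abundant in muscle, measured 110, 101 and 93.0 CPM in SBI and 207, 221 and 225 in SBI + Lac (log2 1.10 ± 0.14, edgeR adjusted p = 0.00177). Sema7a, a membrane-anchored semaphorin, measured 38.7, 38.02 and 30.0 CPM in SBI and 98.4, 97.6 and 69.0 in SBI + Lac (log2 1.33 ± 0.16, edgeR adjusted p = 0.00177). Clu, the secreted chaperone clusterin, measured 81.5, 86.9 and 84.3 CPM in SBI and 190, 167 and 170 in SBI + Lac (log2 1.06 ± 0.21, edgeR adjusted p = 0.0207). The gap between the groups was wider than the spread within either group for all 3 genes. Dusp8, a phosphatase of MAP kinases, Kcnj12, an inward rectifier potassium channel, Rhou, a small GTPase, Epb41l5 and Nupr2 also rose, with fold changes between 2.02 and 3.20. Smyd2, Sema7a and Dusp8 were called in all 6 fits that left out a library, Clu in 2 and Rhou in 1. Clu lost its call without SBI replicate 3 or any 1 of the SBI + Lac libraries, with an edgeR adjusted p of up to 0.0882. Smyd2 was the only called gene among 24 atrophy and FoxO genes, of which 18 lay above 0 (47.7% of all genes did) and 6 below, with a median of 0.34. Eif4ebp1 (log2 0.60 ± 0.10) and Map1lc3b (log2 0.42 ± 0.10) of that list passed the adjusted p but not the fold limit, as did Igfbp5, which binds insulin-like growth factors, in the lower direction (log2 -0.87 ± 0.17, edgeR adjusted p = 0.0181).

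**Figure D2:**
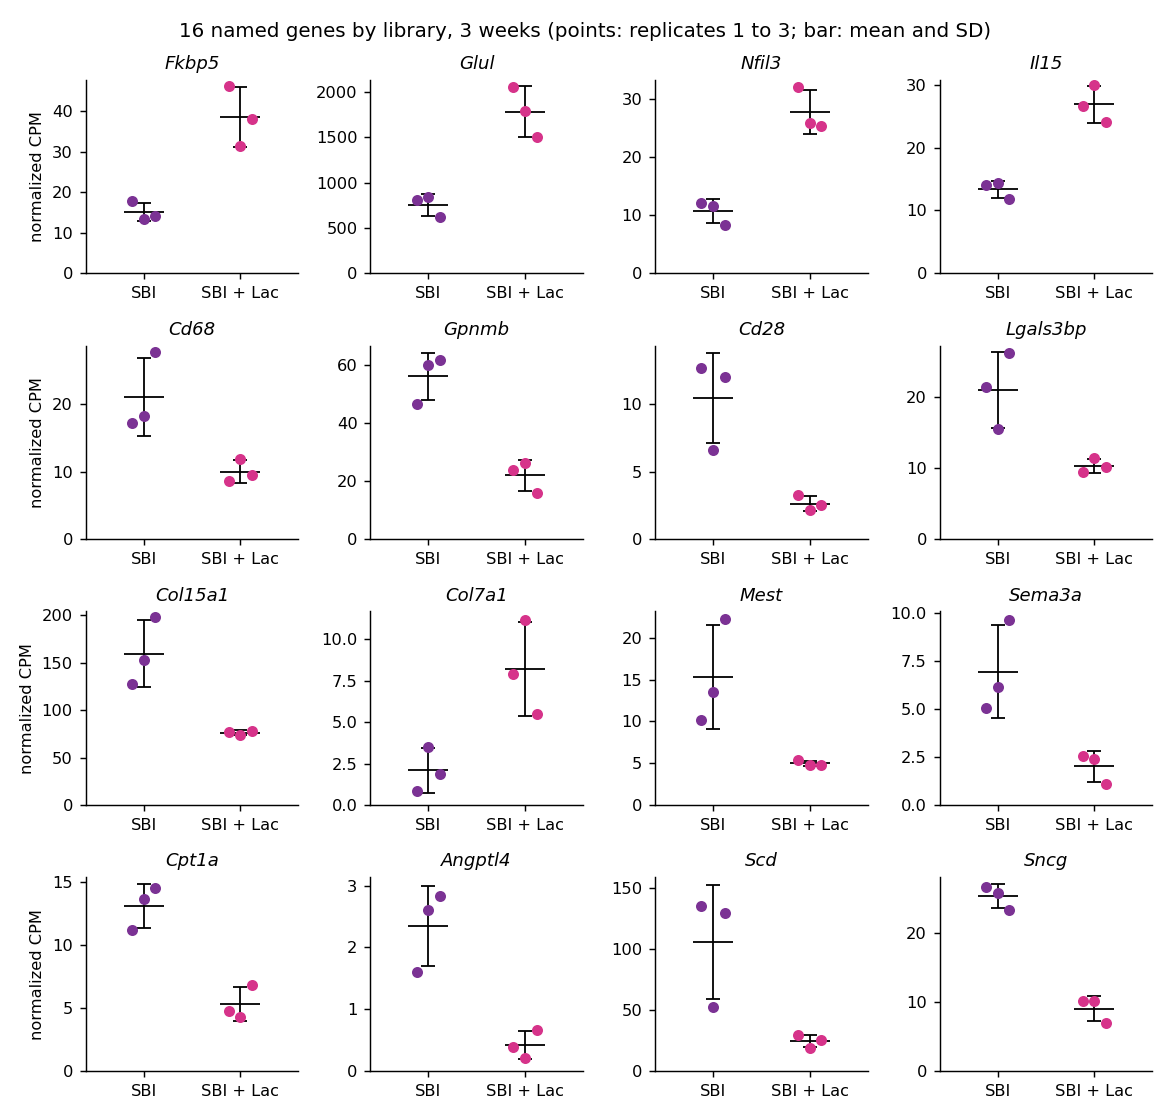
Normalized CPM of 16 named genes in each 3-week library (y axes, linear and starting at 0), with 3 SBI and 3 SBI + Lac libraries per panel and the mean with SD as black lines. In all 16 panels the SBI and SBI + Lac points do not overlap; Fkbp5, Glul, Nfil3, Il15 and Col7a1 are higher in SBI + Lac and the other 11 are lower.

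Fuel genes moved downward in a few members. Of 24 genes of fatty acid use, Angptl4, Cpt1a and Ucp2 fell and 0 rose in edgeR or DESeq2, with 3 higher at an unadjusted p under 0.05. Cpt1a, which loads long-chain fatty acids for entry into mitochondria, measured 11.2, 13.6 and 14.5 CPM in SBI and 4.79, 4.24 and 6.82 in SBI + Lac (log2 -1.38 ± 0.17, edgeR adjusted p = 0.00177). Angptl4, a secreted inhibitor of lipoprotein lipase, measured 1.61, 2.60 and 2.83 CPM in SBI and 0.391, 0.211 and 0.660 in SBI + Lac (log2 -2.80 ± 0.51, edgeR adjusted p = 0.0131). Ucp2, an inner mitochondrial membrane carrier, measured 23.0, 21.2 and 35.6 CPM in SBI and 12.6, 16.8 and 7.58 in SBI + Lac. The libraries of these genes did not overlap, and the call of Cpt1a held whichever library was left out. Angptl4 lost its call without SBI + Lac replicate 1 or 2, with an edgeR adjusted p of up to 0.0753. Fabp3, the heart and muscle fatty acid binding protein, measured 189, 143 and 132 CPM in SBI and 64.8, 73.1 and 104 in SBI + Lac but was not called (log2 -0.94 ± 0.32, edgeR adjusted p = 0.131). The list had 18 members below 0 and 6 above, with a median of -0.21.

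In the list of lipid and cholesterol synthesis, 2 of 24 genes fell and 0 rose in edgeR or DESeq2, with 4 higher at an unadjusted p under 0.05. Scd, the desaturase that makes monounsaturated fatty acids, measured 136, 52.1 and 129 CPM in SBI and 29.2, 18.98 and 25.4 in SBI + Lac (log2 -2.11 ± 0.38, edgeR adjusted p = 0.021). Scarb1, the receptor for high-density lipoprotein, measured 22.1, 20.5 and 34.4 CPM in SBI and 12.5, 14.0 and 12.0 in SBI + Lac (log2 -1.02 ± 0.19, edgeR adjusted p = 0.0166). Every lactating library lay below every non-lactating one for both genes. Me1, malic enzyme, lay above 0 (log2 0.53 ± 0.15, edgeR adjusted p = 0.0676), and the list was evenly split with 12 members on each side of 0 and a median of 0.01. Scd and Scarb1 lost their calls without SBI replicate 3 or without any 1 of the SBI + Lac libraries, after which 0 of the 24 genes were called in edgeR. Adipocyte markers did not shift together. Of 14 tested, 8 lay above and 6 below 0, and the single call was Sncg, described with the 1-week libraries.

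Collagens and matrix genes were mostly lower in SBI + Lac. Among 24 collagen genes 2 fell and 1 rose, 22 lay below 0 against 52.3% of all genes tested, and the median was -0.86. DESeq2 called 6 of them lower on the 6 libraries and 5 on all 12. Col15a1, a basement membrane collagen, measured 128, 153 and 198 CPM in SBI and 76.9, 73.9 and 78.5 in SBI + Lac (log2 -1.07 ± 0.13, edgeR adjusted p = 0.00177). Col7a1, which forms the anchoring fibrils of epithelia, went the other way, at 0.858, 3.53 and 1.88 CPM in SBI and 7.91, 11.2 and 5.50 in SBI + Lac (log2 1.96 ± 0.35, edgeR adjusted p = 0.0125). The groups did not overlap for either gene. Col3a1, a fibrillar collagen of granulating tissue, measured 1621, 1505 and 3750 CPM in SBI and 1222, 1193 and 888 in SBI + Lac, with an edgeR adjusted p of 0.0967. SBI replicate 3 stood well above the other libraries for Col3a1, as it did for the summed collagens (10446 CPM against 4502 and 4667 in the other SBI libraries and 2736 to 3779 in SBI + Lac). Without that library 18 of the 24 collagens lay below 0, the median was -0.41 and edgeR called 0 of them; Col15a1 then had a log2 fold change of -0.88.

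Matrix remodelling and activated fibroblast genes had 7 lower and 0 higher calls in edgeR among 38, with 24 lower and 0 higher at an unadjusted p under 0.05. Npnt, an integrin ligand of basement membranes, measured 40.1, 32.5 and 53.7 CPM in SBI and 18.1, 21.0 and 19.1 in SBI + Lac (log2 -1.13 ± 0.18, edgeR adjusted p = 0.00934). Papln, a matrix glycoprotein related to ADAMTS proteases, measured 6.65, 6.63 and 10.8 CPM in SBI and 2.38, 2.31 and 3.63 in SBI + Lac. Cilp, a matrix protein of cartilage and of fibroblasts in heart and muscle, measured 300, 297 and 477 CPM in SBI and 211, 172 and 115 in SBI + Lac. All 3 were apart between groups. Adam19, Dkk3, Igsf10 and the macrophage elastase Mmp12 completed the calls. DESeq2 on the 6 libraries called 12 of the 38 lower. Without SBI replicate 3 or without SBI + Lac replicate 1, edgeR called 0 of the 38, although 32 and 36 of them still lay below 0, with medians of -0.42 and -1.01. In the tendon and connective tissue list the only call was Scx, the transcription factor scleraxis, at 8.90, 10.6 and 9.10 CPM in SBI and 20.2, 20.1 and 19.1 in SBI + Lac. The libraries of Scx were tight and apart, but its edgeR adjusted p of 0.0417 went past 0.05 whichever library was left out, up to 0.175.

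Genes of satellite cells and regenerating fibers had a median of -1.18 over 36 genes. Of these, 4 fell and 0 rose, with 20 lower and 0 higher at an unadjusted p under 0.05, and 21 had libraries that did not overlap in the lower direction, against 10.4% of all genes. Sema3a, a secreted guidance cue that satellite cells release, measured 5.04, 6.13 and 9.64 CPM in SBI and 2.54, 2.39 and 1.10 in SBI + Lac (log2 -1.72 ± 0.31, edgeR adjusted p = 0.0119). Mest, an imprinted gene that is high in growing mesoderm, measured 10.2, 13.6 and 22.3 CPM in SBI and 5.37, 4.80 and 4.84 in SBI + Lac (log2 -1.67 ± 0.38, edgeR adjusted p = 0.0496). Megf10, a receptor of satellite cells, and Stmn2, a microtubule regulator, fell by 1.19 and 1.18 on the log2 scale. Among lower genes past the fold limit, Mest was nearest inside the limit on the adjusted p and Siglec1, a macrophage lectin, nearest outside (edgeR adjusted p = 0.0516).

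Pax7, the defining transcription factor of satellite cells, measured 5.15, 4.27 and 4.85 CPM in SBI and 2.47, 2.28 and 0.989 in SBI + Lac. These libraries did not overlap, but Pax7 missed the threshold (log2 -1.20 ± 0.31, edgeR adjusted p = 0.0543). Nmrk2, a nicotinamide riboside kinase of muscle, measured 25.96, 29.6 and 44.2 CPM in SBI and 4.33, 8.70 and 15.1 in SBI + Lac and also missed it (log2 -1.96 ± 0.45, edgeR adjusted p = 0.0555). Without SBI replicate 3, 32 of the 36 genes still lay below 0 and the median was -0.84, but edgeR called 0 of them; it also called 0 without SBI + Lac replicate 1, where the median was -1.26. DESeq2 on the 6 libraries called 15 of the 36 lower. Imprinted genes, several of which mark growing muscle, had 19 of 22 members below 0 with a median of -0.60, and Mest was the only call. Adult sarcomere genes had 20 of 24 members above 0, with a median of 0.25. None was called in edgeR or DESeq2, and 4 were higher at an unadjusted p under 0.05. Atp2a1, the fast-fiber calcium pump, had the smallest p of these (log2 0.59 ± 0.23, edgeR adjusted p = 0.153).

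Of 33 genes of the cell cycle and DNA repair, 2 fell and 1 rose in edgeR, with 13 lower at an unadjusted p under 0.05. DESeq2 called 2 lower on the 6 libraries and 9 lower on all 12. Prc1, which bundles spindle microtubules in cytokinesis, measured 1.61, 2.23 and 2.71 CPM in SBI and 0.521, 0.488 and 0.550 in SBI + Lac (log2 -2.15 ± 0.38, edgeR adjusted p = 0.011). Ccnb2, a mitotic cyclin, measured 0.751, 0.619 and 0.840 CPM in SBI and 0.130, 0 and 0.110 in SBI + Lac (log2 -3.67 ± 0.85, edgeR adjusted p = 0.0363). The one increase, Fanca, belongs to the Fanconi anemia repair complex and measured 0, 0.619 and 0.468 CPM in SBI and 4.98, 5.40 and 4.84 in SBI + Lac. The RefSeq span of Fanca overlaps that of Zfp276, which had a log2 fold change of 0.14. Fanca was called in all 6 fits that left out a library, whereas Prc1 was called in 3 and Ccnb2 in 2. Of the lower genes, 3 had no count in any SBI + Lac library. With counts pooled over each group and 3 counts as the floor, Cbln1, a synaptic organizer, was 15.8-fold lower at that floor. Exo1, a repair exonuclease, was 9.62-fold lower. The floor leaves out the spread between pools, so these values are not bounds. Of the 6 fits that left out a library, Cbln1 and Snrpg were called in 2 and Exo1 in 1. DESeq2 on the 6 libraries called none of the 3. The splicing protein gene Snrpg, 15.5-fold lower at the floor, has near-identical copies in mammalian genomes, and its value is uncertain for that reason. The histone gene symbol Hist1h4m, with 2 called identifiers, is likewise one of a multicopy family.

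Macrophage and monocyte genes were all on one side of 0. Of 28 tested, 5 fell, 0 rose, and 28 lay below 0, with a median of -0.76; 16 were lower and 0 higher at an unadjusted p under 0.05. Gpnmb, a glycoprotein of lysosome-rich macrophages, measured 46.8, 60.2 and 61.7 CPM in SBI and 23.7, 26.3 and 16.05 in SBI + Lac (log2 -1.33 ± 0.21, edgeR adjusted p = 0.00934). Cd68, a lysosomal macrophage marker, measured 17.2, 18.3 and 27.7 CPM in SBI and 8.69, 12.0 and 9.45 in SBI + Lac (log2 -1.08 ± 0.20, edgeR adjusted p = 0.015). C3ar1, the receptor for complement C3a, measured 3.86, 5.45 and 8.34 CPM in SBI and 2.57, 3.40 and 1.76 in SBI + Lac. No gene of these overlapped between groups. The summed level of the marker trio Cd68, Csf1r and Cd163 overlapped, at 103 to 192 CPM in SBI and 96.9 to 109 in SBI + Lac. SBI replicate 3 was again the highest library. Without it 18 of the 28 genes lay below 0, with a median of -0.39 and 1 call, whereas without SBI + Lac replicate 1 all 28 lay below 0 and edgeR called 0.

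Lymphocyte genes rested on 1 library to a greater degree. Of 21 tested, 2 fell (Cd28 and Cd8b) and 21 lay below 0, with a median of -1.15. Many of the 21 had few counts. With the 6 libraries of 3 weeks alone, 13 of them passed the low-count filter, all below 0. Only 4 had at least 10 counts in every 3-week library. Cd8b, a co-receptor chain of cytotoxic T cells, measured 1.07, 0.495 and 0.768 CPM in SBI and 0.195, 0.0976 and 0.110 in SBI + Lac (log2 -2.48 ± 0.62, edgeR adjusted p = 0.0485). Its partner chain Cd8a measured 0.966, 0.557 and 1.87 CPM in SBI and 0, 0.781 and 0 in SBI + Lac, which overlapped. The summed T cell markers Cd3e, Cd3g and Cd2 were near the limit of detection, at 0.858 to 4.18 CPM in SBI and 0.110 to 2.65 in SBI + Lac. Only 3 of the 21 genes had libraries that did not overlap, where 10.4% of all genes had such libraries in that direction. Without SBI replicate 3 the median turned to 0.06, with 8 genes below and 13 above 0; edgeR then called 0, as it did without SBI + Lac replicate 1 or 3. Among regulatory T cell genes the single edgeR call of 11 was Nfil3, which is also in the clock list. Foxp3, the defining factor of that lineage, measured 1.72, 2.41 and 1.57 CPM in SBI and 4.40, 3.97 and 4.29 in SBI + Lac, without overlap. It was not called in edgeR (log2 1.16 ± 0.35, adjusted p = 0.0859) but was called in DESeq2, on the 6 libraries (adjusted p = 0.0153) and on all 12 (adjusted p = 0.0257). Il2ra, which the same cells carry, had a log2 fold change of -1.81 ± 0.74 and was not called in edgeR.

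Interferon-stimulated genes were lower across nearly the whole list. Of 32 tested, 31 lay below 0 and 19 had libraries that did not overlap in the lower direction, against 10.4% of all genes, with a median of -0.71. Calls were few, 2 lower and 0 higher in edgeR, with 15 lower and 0 higher at an unadjusted p under 0.05, while DESeq2 on the 6 libraries called 8 lower and 1 higher. Mlkl, the executioner of necroptosis, measured 5.79, 4.15 and 4.90 CPM in SBI and 2.05, 2.75 and 2.09 in SBI + Lac (log2 -1.07 ± 0.21, edgeR adjusted p = 0.0164). Lgals3bp, a secreted galectin-binding protein, measured 21.3, 15.5 and 26.2 CPM in SBI and 9.48, 11.4 and 10.1 in SBI + Lac (log2 -1.03 ± 0.21, edgeR adjusted p = 0.0242). Both lay apart between groups. Mx2, an antiviral GTPase, measured 48.3, 22.5 and 19.9 CPM in SBI and 11.0, 7.66 and 9.12 in SBI + Lac but was not called (log2 -1.68 ± 0.54, edgeR adjusted p = 0.125). Unlike the lymphocyte list, this one had 30 of 32 members below 0 without SBI replicate 3, with a median of -0.63, and between 30 and 31 below 0 in each of the 6 fits that left out a library. The calls themselves were lost without SBI replicate 3, SBI + Lac replicate 1 or SBI + Lac replicate 3, when edgeR called 0 of the 32.

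The motif GAAANNGAA occurred in 18 of the 25 interferon-list promoters found in RefSeq, 72%, and in 9.50% of all promoters of the same length. Among the 62 lower genes with a promoter it occurred in 5, or 8.06%, and among the promoters of all genes tested in 7.21%. The Mlkl promoter held no match. The 250 bases before the start of Lgals3bp (GRCr8 chr10:104127849-104128098, minus strand) are shown as those of the called member with a match, which is in capitals, 50 bases before the start.

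Lgals3bp: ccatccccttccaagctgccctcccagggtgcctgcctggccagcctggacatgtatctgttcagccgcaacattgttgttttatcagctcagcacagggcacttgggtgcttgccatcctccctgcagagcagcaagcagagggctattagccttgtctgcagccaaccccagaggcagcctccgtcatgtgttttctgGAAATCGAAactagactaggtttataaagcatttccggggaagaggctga

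**Figure D3:**
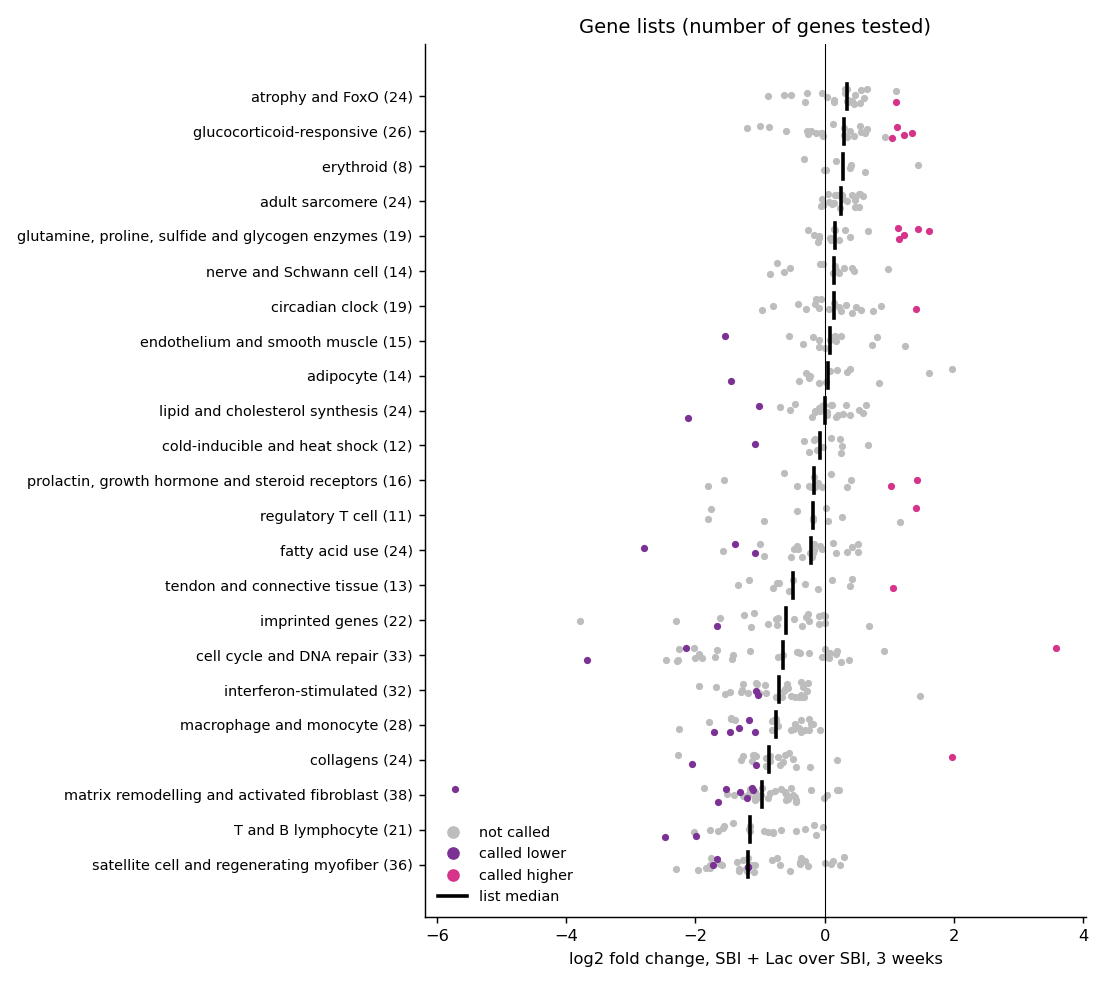
Log2 fold change of SBI + Lac over SBI at 3 weeks (x axis) for each gene tested in 23 of the 24 lists (rows, sorted by median, with the number of genes), spread vertically at random within a row; the milk list is described in the text. Coloured points passed the call and black bars are list medians, which run from -1.18 for satellite cell and regenerating fiber genes to 0.34 for atrophy and FoxO genes.

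Other tissues in the muscle sample were checked by their markers. Milk protein transcripts were at 0 in the SBI libraries, except Csn1s1 at 0.012 CPM in replicate 3, and present in 2 or 3 of the SBI + Lac libraries. Csn2, beta-casein, measured 14.1, 4.05 and 0 CPM in SBI + Lac, and Wap, whey acidic protein, had 95, 40 and 2 counts there. The same libraries ranked alike for both transcripts. Wap did not pass the low-count filter and was not tested. Of 7 milk and mammary genes tested, 0 were called in edgeR, with 3 higher at an unadjusted p under 0.05. DESeq2 called 2 higher on the 6 libraries and 3 on all 12. Without SBI + Lac replicate 3, edgeR called 3 higher. Epcam, an epithelial membrane marker, stayed at 0.0976 to 0.557 CPM in all 6 libraries. The part of these transcripts in other results was not tested; with library sizes that left out milk, erythroid and mitochondrial genes, edgeR called 74 genes lower and 31 higher. None of the 8 erythroid or 14 nerve and Schwann cell genes was called in edgeR or DESeq2, with 0 and 2 at an unadjusted p under 0.05. In the list of endothelium and smooth muscle Btnl9 fell, 1 of 15. In the list of cold-inducible and heat shock genes Rbm3, a cold-inducible RNA-binding protein, fell, 1 of 12, at 80.5, 59.6 and 65.4 CPM in SBI and 28.6, 34.8 and 34.0 in SBI + Lac (log2 -1.08 ± 0.14, edgeR adjusted p = 0.00193).

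The 6 pools taken at 1 week came from other rats and are no part of the 3-week contrast, although they shared its low-count filter and its estimate of the spread. Their columns hold whole counts, whereas the 3-week columns carry decimals. Whether both were quantified alike is not given, and its part in comparisons between the time points was not tested. With the 6 libraries of 3 weeks alone, edgeR called 46 genes lower and 27 higher, 35 and 24 of them among the 108. Of the 78 lower genes, 68 (87.2%) were also lower at 1 week, against 50.5% of all genes tested, and 44 (56.4%) had libraries that did not overlap in that direction, against 14.1%. Of the 30 higher genes, 29 (96.7%) were also higher, against 49.4%, and 22 (73.3%) did not overlap, against 14.3%. An unadjusted p under 0.05 in the same direction was found for 47 of the 78 and 22 of the 30, against 9.16% and 9.76% of all genes. The changes at 1 week were smaller for 74 of the 78 and 27 of the 30 genes, with medians of -0.73 and 0.88. Selection at 3 weeks favours large values there, so this comparison of sizes is not a test of time. By the full rule, 5 of the lower genes (Rbm3, Gpnmb, Frmpd1, Jaml and Mmp12) and 7 identifiers of the higher genes (Il15, Fmo2, Nfil3, Fkbp5, Ppp1r1a, Glul and Hist1h4m) were called at 1 week as well, where 0.164% and 0.089% of all genes were called in those directions. The 1-week calls moved with single libraries too, from 1 lower and 1 higher to 172 lower and 64 higher, the last without replicate 3 of the non-lactating 1-week group.

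**Figure D4:**
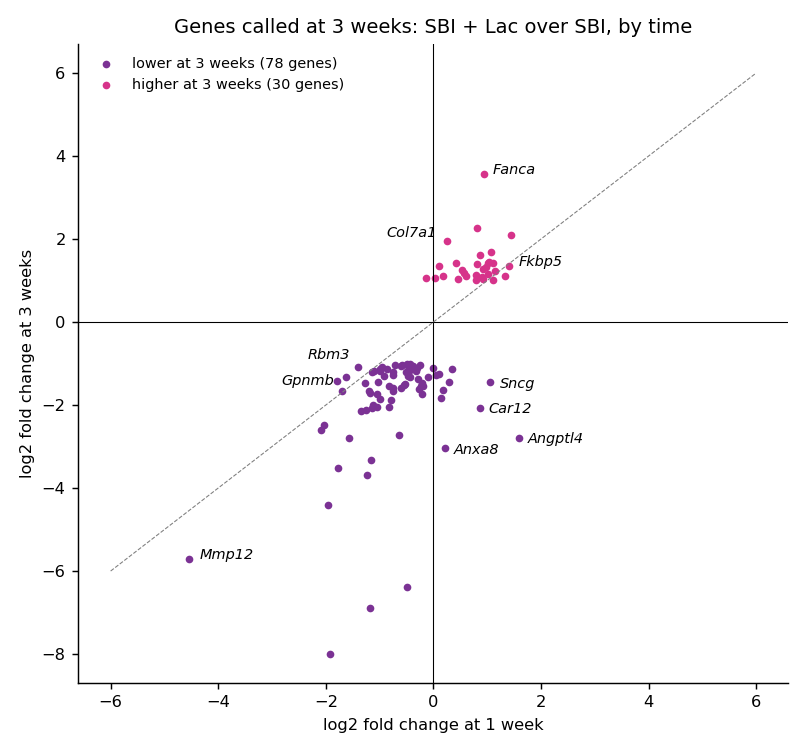
Log2 fold change of SBI + Lac over SBI at 1 week (x axis) and at 3 weeks (y axis) for the 108 genes called at 3 weeks; the dashed line marks equal values. Of the lower genes 68 of 78 lie left of 0 and of the higher genes 29 of 30 lie right of 0, while Sncg, Angptl4 and Car12 fell at 3 weeks and lie right of 0 at 1 week.

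Sncg, gamma-synuclein, a protein of adipocytes and peripheral neurons, differed in its response between the time points. At 3 weeks it measured 26.8, 25.9 and 23.5 CPM in SBI and 10.1, 10.1 and 6.92 in SBI + Lac, a fall of 2.73-fold (log2 -1.45 ± 0.18, edgeR adjusted p = 0.00177). At 1 week its log2 fold change was 1.06 ± 0.17 (edgeR adjusted p = 0.0222). It was the only one of 14599 genes (0.00685%) whose difference between the effects had an edgeR adjusted p under 0.05, while 645 (4.42%) had an unadjusted p under 0.05. Angptl4 came next among the genes of opposite sign, with log2 fold changes of -2.80 at 3 weeks and 1.58 ± 0.42 at 1 week, and its difference missed the threshold (edgeR adjusted p = 0.052). Adipoq, Plin1 and Cidec, which define adipocytes, summed to 3.86 to 9.47 CPM in SBI and 0.989 to 10.9 in SBI + Lac at 3 weeks, which overlapped. Car12, Dok5 and Mgmt fell at 3 weeks with positive 1-week values of 0.86, 0.34 and 0.28 that were not called, and Clu rose at 3 weeks with a 1-week value of -0.14 ± 0.21. For interferon-stimulated genes the 1-week median was -0.14, against -0.71 at 3 weeks, and for fatty acid use it was 0.23 against -0.21; the difference of list medians was not tested.

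How far each call rested on single libraries was read from 6 fits that each left out 1 library of 3 weeks. Lower genes called in all 6 were Anxa8, Sncg and Cpt1a, 3 of 78. Higher genes called in all 6 were Smyd2, Dusp8, Glul, Sema7a, Fkbp5, Nfil3, Hist1h4m and Fanca, 8 of 30. Without SBI + Lac replicate 1, edgeR called 7 genes lower and 13 higher, 5 and 12 of them among the 108. Without SBI replicate 3 it called 25 and 18, of which 21 and 15 were among the 108. The numbers rose to 108 lower and 49 higher without SBI replicate 1, and to 100 and 32 without SBI replicate 2. Left out in turn, SBI + Lac replicate 2 gave 41 and 19 and SBI + Lac replicate 3 gave 27 and 28. Each of these fits had 2 pools in 1 of the groups. Besides Foxp3, edgeR with all libraries did not call Irf7, Adam12, Coro1a, Col6a5, Fap, Col5a3, Thbs3 or Csn1s2a, which the study names for 3 weeks. DESeq2 on the 6 libraries called all of them, Csn1s2a higher and the others named here after Foxp3 lower. Slamf9, Cd180 and Col19a1, also named by the study, were called lower in edgeR. Their calls held in 2, 4 and 0 of the 6 fits.

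**Figure D5:**
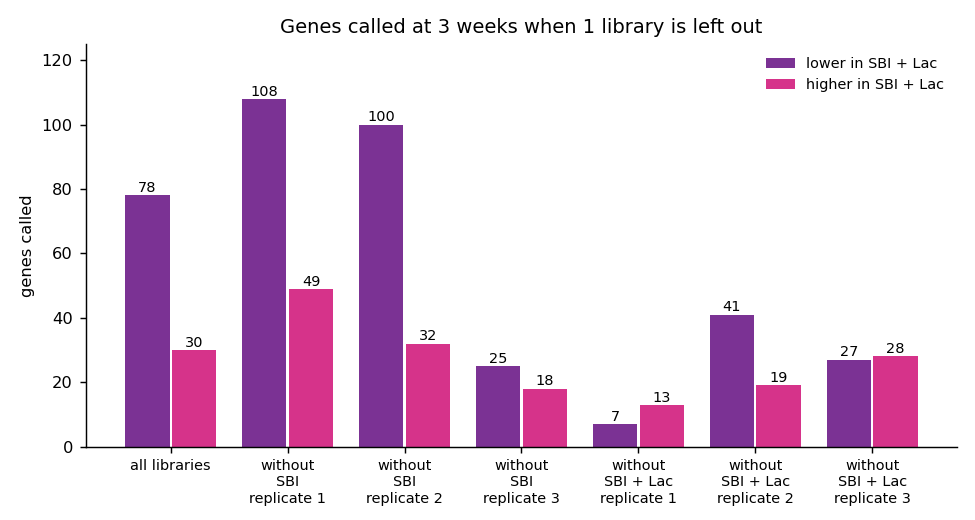
Number of genes called lower (purple) and higher (pink) in SBI + Lac at 3 weeks in edgeR with all libraries and with each 3-week library left out in turn (bars start at 0). The lower calls range from 7 without SBI + Lac replicate 1 to 108 without SBI replicate 1, and the higher calls from 13 to 49.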

How the data were processed

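RNA of pubocaudalis muscle, pooled from 2 rats a library, was sequenced in 12 libraries, 3 in each of 4 groups. The table deposited by the authors holds estimated counts per Ensembl gene; Salmon is named in the submitters' processing notes, without a version. The 1-week columns hold whole counts as deposited, and 26.6% to 44.0% of values in the 3-week columns carry decimals, so the authors' estimated counts were rounded. The genome build of the table is not given in the sources used here. Columns were matched to samples by title, and 0 columns were left unused.

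All 12 libraries were fitted together in edgeR 4.0.16 (R 4.3.3, limma 3.58.1) with TMM normalization, filterByExpr and the robust quasi-likelihood test, without a block for replicate number, and p-values were adjusted by Benjamini-Hochberg over 14599 genes. Tests are two-sided. Normalized CPM divides each count by the TMM-scaled library size (factors 0.850 to 1.10). Pairs of 3-week pools of a group differed by 20.9 to 47.1 times the sampling variance of their counts, so all were kept as separate replicates. In simulated counts on 14341 genes, genes were counted at an adjusted p under 0.05 alone, without the fold limit of the call. The changed genes were drawn from those averaging over 1 CPM. By that rule the 3-week test recovered 74 of 100 genes changed 2-fold and 94 of 100 changed 3-fold, with 7 unchanged genes passing. Each gene was drawn independently, without shifts that many genes of a library share. These rates therefore need not hold for the real libraries. Recovery under the full call was not measured.

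Members and lists were chosen with earlier results of these data known. Genes were named by fixed rules: per direction the 15 smallest adjusted p and the 6 largest fold changes among called genes of at least 1 CPM, called members of 24 lists, genes the study names, and genes of opposite sign at 1 week. Esr1, Prlr, Tsc22d3, Mt1, Npas2, Nr1d1, Per2, Fabp3, Me1, Col3a1, Pax7, Nmrk2, Mx2, Eif4ebp1, Map1lc3b, Igfbp5, Cd8a, Il2ra and other uncalled list members were picked after their values were seen, as were the genes at 0. Alternatives covered normalization, DESeq2 1.42.0, filters, thinning, a replicate block and each library left out. Lists were given counts and medians and no set test. Promoters are RefSeq GRCr8.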

Additional observations from a re-analysis of the deposited data

Results flagged for a closer look

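The lactation effect on Sncg differed between the time points by -2.51 on the log2 scale (3 weeks minus 1 week, edgeR interaction test, adjusted p = 0.00062), since the gene was lower in SBI + Lac at 3 weeks and higher at 1 week.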

How the results depend on the processing

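Against 78 lower and 30 higher genes at 3 weeks, RLE, upper-quartile, milder and stricter count filters, trimmed library sizes and unrounded values stayed within 1.5 times. Those are totals, and the genes themselves changed more. Of the 78 and 30 genes, 48 and 24 were also called under the stricter filter, and 66 and 27 under the milder one. DESeq2 called 135 lower on the 6 libraries, and 197 lower and 58 higher on all 12. The edgeR fit of the 6 libraries alone called 46 lower, and 44 after thinning to equal depth. No fold limit gave 174 lower and 197 higher. Leaving out each library gave 7 to 108 lower and 13 to 49 higher at 3 weeks, 1 to 172 lower and 1 to 64 higher at 1 week, and 1 to 6 lower and 0 to 1 higher for the difference between the effects. The cause of these moves was not tested. Depth limits the 9 lower genes under 1 CPM in both groups.

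Replicate numbers gave no sign of pairing: deviations of same-numbered 3-week libraries correlated at -0.091, -0.109 and -0.269, and no library correlated best with its own number. With the replicate number as a block, edgeR called 14 lower and 12 higher genes at 3 weeks, of which 14 and 11 were among the 108, and 2 lower and 3 higher at 1 week; the difference between the effects kept 1 lower and 0 higher.

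For the 81 genes chosen by the fixed rules, not all of which are described in the text, no alternative reversed a direction. Most of the 81 were called genes, whose libraries did not overlap between groups, so a reversal was unlikely from the start. Genes picked after their values were seen, such as Pax7 and Nr1d1, were not among the 81. Of 486 values with a library left out, 179 fell below the threshold, and of 858 others, 93 did and 21 moved past it. A value was counted only where the gene was fitted and had an adjusted p. Calls lost because a filter removed the gene are therefore not among the 93.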
